A study of Arabidopsis thaliana with 28 samples.

Results

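The BAM8-N_Ox line of Arabidopsis thaliana was compared with wild type at the level of shoot transcripts, using 2 arrays of BAM8-N_Ox and 2 of wildtype, chosen by their labelled genotype from the 28 arrays of the series. BAM8 is a nuclear protein that joins a DNA-binding domain of the BZR1 type to a domain related to beta-amylases, enzymes that release maltose from starch. BZR1 and its relatives are transcription factors of brassinosteroid signalling, a growth hormone pathway. The suffix N is understood here, from general knowledge of the study, as an amino-terminal part of the protein that keeps the DNA-binding domain and lacks the beta-amylase-like domain. The labels do not spell it out. The comparison addresses how the line labelled with this shortened BAM8 differs from wild type in its transcriptome. The series as a whole asks what the enzyme-like domain contributes to DNA recognition and activation.

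The groups used were BAM8-N_Ox, BAM8_Ox (the line of the same protein without a suffix), BAM7-N_Ox (the N variant of the related protein BAM7) and wildtype, all in the Col-0 ecotype and with 2 biological replicates each. The ending Ox is read here as overexpression. The promoter of the transgenes, the parental genotype they were placed in and the number of independent transformants are not given in the labels, so each line stands for the plants sampled and not for a set of insertions. Plants were 3 weeks old and untreated, each replicate pooled 14 plants, and shoots were taken 4 h into a 12 h day at 20 °C. A pool of whole shoots cannot tell fewer cells of a type from less RNA per cell. The arrays report 22747 probe sets, each an intensity with no detection call, and no table used here pairs a probe set with a gene. Probe sets are therefore given by their IDs, at most 2 per direction in a comparison, and neither the level of BAM8 nor markers of shoot tissue could be read by name.

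The medians of the 8 arrays of these groups lay between 23.7 and 24.9 intensity units. Replicate arrays of BAM8-N_Ox correlated at r = 0.996 across probe sets and differed by more than 2-fold at 24 of them, against 0.995 and 50 in wildtype. The 25th percentile of intensity was 7.06 and 7.10 in BAM8-N_Ox, below 8.20 and 7.60 in wildtype, so the dim end of the scale differed between the groups before any probe set was tested.

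Against wildtype, 847 of 22746 probe sets were called in BAM8-N_Ox (limma, adjusted p under 0.05), which is 3.72% of those tested. Of these 478 were higher (2.1% of those tested) and 369 lower (1.62%). This was the highest count among the 13 lines set against wildtype, ahead of 676 in BAM7-N_Ox, 135 in BAM8-Cat_Ox and 102 in BAM8_Ox, comparisons that share the wildtype arrays. Without wildtype replicate 1 the order of the N lines turned, with 286 in BAM8-N_Ox and 320 in BAM7-N_Ox. Most differences were modest. Of the 478 higher probe sets 77 differed by 2-fold or more and 6 by a log2 difference of at least 2, and of the 369 lower ones 49 and 2 did so. The median log2 difference was 0.66 among the higher and -0.62 among the lower probe sets, against -0.06 over all probe sets. The last probe set called had an adjusted p of 0.0498 and a log2 difference of -0.52, and the first one beyond the threshold had a log2 difference of -0.66.

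**Figure D1:**
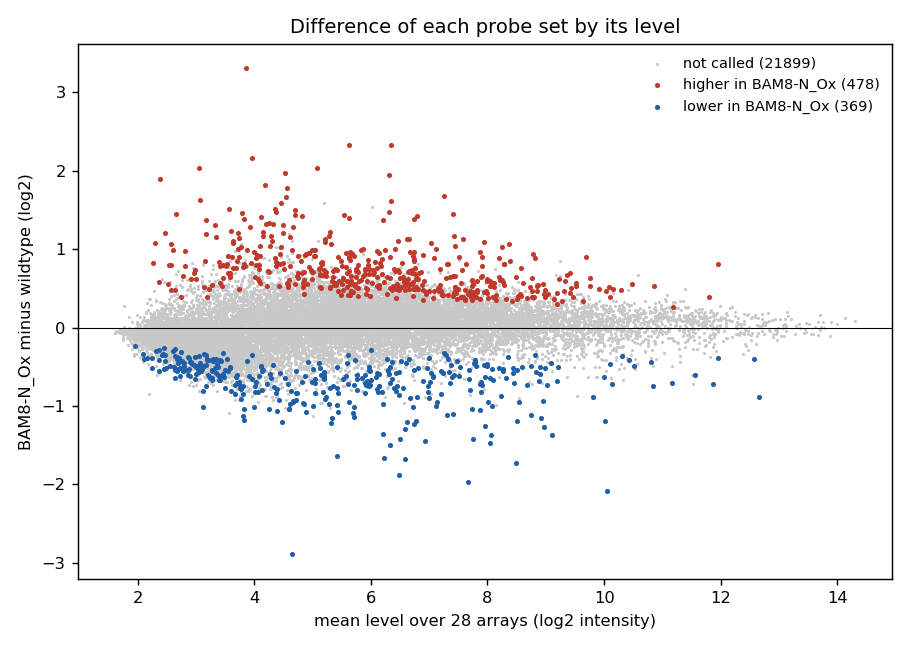
Log2 difference of BAM8-N_Ox minus wildtype (vertical) against the mean level over 28 arrays in log2 intensity (horizontal), 1 point per probe set. The 478 higher probe sets (red) and 369 lower ones (blue) spread over most of the range of levels, with 264514_AT at the top and 249780_AT at the bottom, and the uncalled dim probe sets lie mostly below 0.

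The calls were not spread evenly over levels. Among the 7582 probe sets with the lowest mean level, up to 9.93 units, 30 were higher and 85 lower in BAM8-N_Ox, or 1.52% of them. Among the 7582 brightest, from 60.0 units, 247 were higher and 157 lower, or 5.33%. The median difference of all probe sets was -0.13 in the dim class and 0.08 in the bright class, which runs the same way as the 25th percentiles. Its part in the calls was not tested. Cyclic loess gave 764 calls, with 639 of the 847 among them, and quantile normalization gave 785, with 648 of the 847 among them.

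The count rested on a spread pooled over all 14 groups and on single arrays. Leaving out wildtype replicate 2 raised the number called in every line set against wildtype, not only in BAM8-N_Ox. With only the 4 arrays compared, the count in BAM8-N_Ox was 3. It was 250 without BAM8-N_Ox replicate 1, 442 without BAM8-N_Ox replicate 2, 286 without wildtype replicate 1 and 1469 without wildtype replicate 2, when lower calls (792) outnumbered higher ones (677). Of the 847 calls, 100 higher and 46 lower held in each of 11 settings that keep the pooled spread, among them the loss of any one of the 4 arrays. Among differences of 2-fold or more, 55 of the 77 higher and 29 of the 49 lower probe sets held.

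Setting BAM8-N_Ox against the mean of the 11 lines other than wildtype and BAM7-N_Ox (22 arrays) left the wildtype arrays out of the difference, though not out of the pooled spread, and it was chosen after the data were seen. It gave 562 higher and 348 lower probe sets, 4% of those tested (2.47% higher and 1.53% lower). Both comparisons share the BAM8-N_Ox arrays. In it, 328 of the 478 higher and 200 of the 369 lower probe sets were called in the same direction, and 0 in the opposite one. The differences were smaller, with a median of 0.47 for the 478 and -0.43 for the 369.

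**Figure D2:**
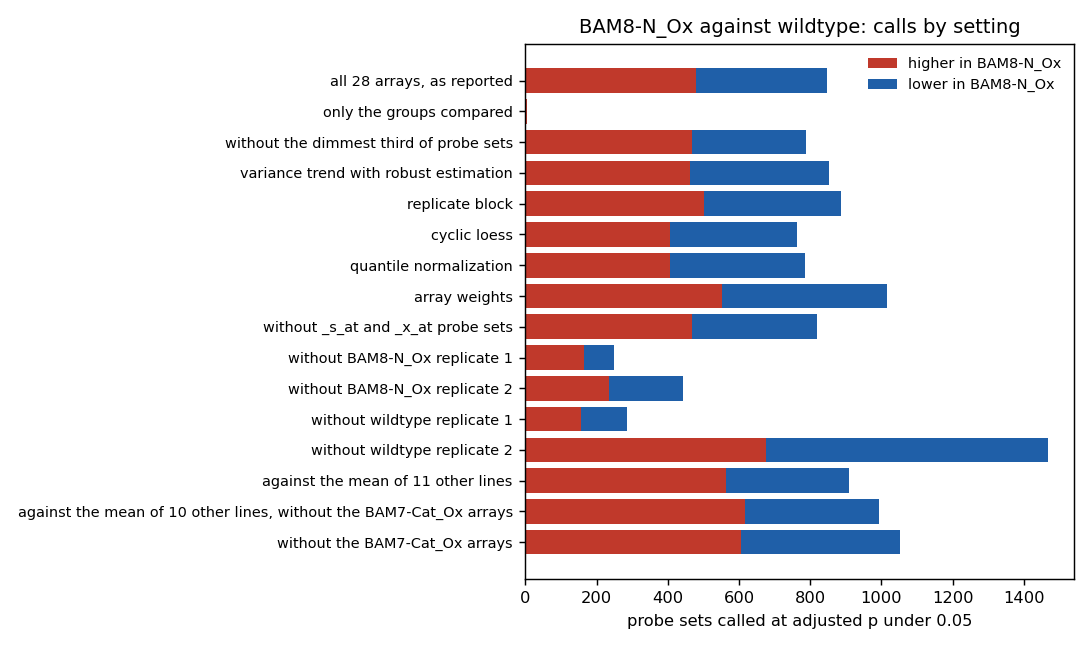
Number of probe sets called in BAM8-N_Ox against wildtype (horizontal, adjusted p under 0.05) under each setting (rows), with those higher in BAM8-N_Ox in red and those lower in blue. The count is 847 with all 28 arrays, 3 with only the groups compared and 1469 without wildtype replicate 2.

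The largest rise was that of 264514_AT. It stood at 74.0 and 83.7 units in BAM8-N_Ox, against 8.90 and 7.13 in wildtype. The log2 difference was 3.30 (SE 0.301, 95% interval 2.67 to 3.94, adjusted p 5.28e-06). The wildtype levels lay at the 27.8 and 22.5 percentile of their arrays, so the 9.88-fold rise is a lower bound if they are background. The probe set was also bright in BAM8_Ox, with 59.3 and 53.4 units, and in BAM8-Cat_Ox, with 114 and 130 units, and between 6.10 and 19.1 on the 18 arrays of the other lines without an N suffix. Against BAM8_Ox the difference was 0.48 (95% interval -0.15 to 1.12, adjusted p 0.545), so a difference between them was not detected.

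Probe set 260560_AT had the next largest rise. It measured 263 and 228 units in BAM8-N_Ox, against 48.0 and 49.7 in wildtype, a log2 difference of 2.33 (SE 0.377, adjusted p 0.00165). Both BAM8-N_Ox arrays lay above every other array of the series, followed by BAM7-N_Ox with 203 and 204 units. Its level varied among the 11 other lines, between 13.9 units in BAM7-DNA_Ox replicate 2 and 108 units in BAM7_Ox replicate 1, whose replicate 2 had 44.9. BAM8_Ox, with 100 and 84.1 units, was brighter than wildtype on both arrays. BAM8-N_Ox was not called against BAM8_Ox (1.41, 95% interval 0.62 to 2.21, adjusted p 0.072). The difference from BAM7-N_Ox was 0.27 (95% interval -0.52 to 1.06, adjusted p 1.00).

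The largest fall was that of 249780_AT, with 5.12 and 8.58 units in BAM8-N_Ox, against 54.9 and 44.1 in wildtype. The log2 difference was -2.89 (SE 0.223, adjusted p 5.92e-07). The BAM8-N_Ox levels lay at the 10.5 and 30.8 percentile of their arrays, so the fall is a lower bound if they are background. The brighter of them lay above the range of the other dim lines given next. The same probe set stood between 4.16 and 5.86 units on the 10 arrays of bam8, BAM8_Ox, BAM8-DNA_Ox, BAM8-Cat_Ox and BAM8-Lig_Ox, and at 107 and 71.6 units in bam7 bam8. On the other 16 arrays, bam7 bam8 and all BAM7 lines included, it stood at 44.1 units or more. Whether these lines share a parent other than wildtype cannot be read from the labels.

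The next largest fall was at a bright probe set. 256527_AT measured 367 and 293 units in BAM8-N_Ox, against 1407 and 1366 in wildtype, a log2 difference of -2.08 (SE 0.149, adjusted p 2.08e-07). Both BAM8-N_Ox values were the lowest of the 28 arrays. BAM7-N_Ox followed with 578 and 604 units, and the 11 other lines lay between 744 units in BAM8_Ox replicate 2 and 1573 units in BAM8-Lig_Ox replicate 2. In the fit of only the 4 arrays compared, the calls of 249780_AT and 256527_AT were lost (adjusted p 0.0821 and 0.0608), while those of 264514_AT and 260560_AT held in all 13 alternatives.

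**Figure D3:**
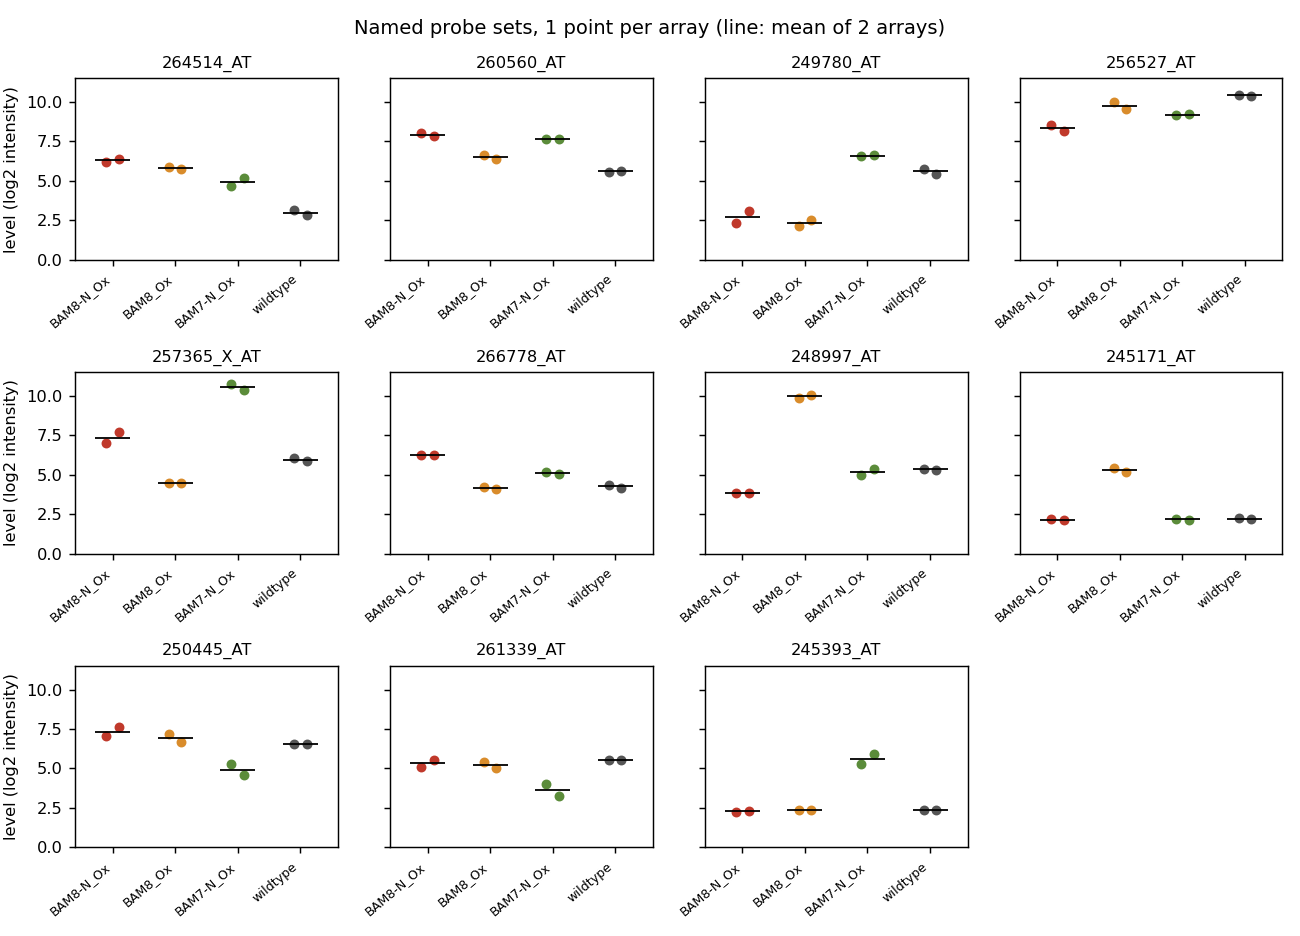
Level in log2 intensity (vertical) of the 11 probe sets named here in BAM8-N_Ox, BAM8_Ox, BAM7-N_Ox and wildtype, 1 point per array, with a line at the mean of the 2 arrays. BAM8-N_Ox and wildtype are far apart at 264514_AT (mean 6.30 and 2.99) and close at 245393_AT (2.29 and 2.38), where BAM7-N_Ox stands alone at 5.59.

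The probe sets called against wildtype were then read in the other lines. Each line was set against the mean of the remaining lines without wildtype, BAM8-N_Ox and BAM7-N_Ox. This mean held 11 lines for BAM7-N_Ox and 10 for each other line. The arrays of these comparisons do not enter the difference that chose the probe sets. They do enter the pooled spread, which set both the choice and the calls read here. The share of all probe sets called is therefore a description of the background and not a level free of that choice. BAM7-N_Ox moved with BAM8-N_Ox at many of them. Of the 478 probe sets higher in BAM8-N_Ox, 181 were called higher and 3 lower in BAM7-N_Ox, where 2.63% of all probe sets were called higher. These 181 are 37.9% of the BAM8-N_Ox list and 30.3% of the 598 called higher in BAM7-N_Ox. Of the 369 lower ones, 103 were called lower and 5 higher in BAM7-N_Ox, where 2.26% of all were called lower, and these are 27.9% and 20.1% of the lists. Among probe sets of 2-fold or more, BAM7-N_Ox was called in the same direction at 53 of 77 higher and 28 of 49 lower ones. It was called in the opposite direction at 0 and 2 of them. The share of 37.9% ranged from 16.9% without BAM7-N_Ox replicate 2 to 59.0% without wildtype replicate 1. That of 27.9% ranged from 12.5% without wildtype replicate 2 to 64.7% without BAM8-N_Ox replicate 1, as the list was taken again each time.

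In BAM8_Ox, 41 of the 478 were called higher and 1 lower, or 8.58% higher where 0.954% of all probe sets were, and 27 of the 369 were called lower and 7 higher, or 7.32% lower where 0.624% of all were. BAM8-Cat_Ox gave 41 higher and 11 lower of the 478, against 1.17% of all called higher, and 16 lower and 12 higher of the 369, against 0.765% of all called lower. BAM7-Cat_Ox had more opposite calls than like ones, with 5 higher and 29 lower of the 478 and 5 lower and 29 higher of the 369, where 2.51% of all probe sets were called higher and 2.44% lower. The 2 arrays of BAM7-Cat_Ox differed from each other by more than 2-fold at 254 probe sets, the most of any group, and the part of this spread in its calls was not tested. In the 8 remaining lines 0 to 3 of the 478 were called higher and 0 to 7 lower, and 1 to 4 of the 369 were called lower and 0 to 8 higher. Opposite calls outnumbered like ones in both lists in bam7 bam8 (7 lower and 3 higher of the 478, 8 higher and 2 lower of the 369) and in BAM7-DNA_Ox (3 lower and 1 higher, 7 higher and 2 lower). Few probe sets were called there at all. The share of all probe sets called higher was 0.0176% in bam7, 0.0132% in bam8, 0.167% in bam7 bam8, 0.136% in BAM7-DNA_Ox, 0.0835% in BAM8-DNA_Ox, 0.127% in BAM7-Lig_Ox, 0.022% in BAM8-Lig_Ox and 0.132% in BAM7_Ox. The share called lower was 0.0308% in bam7, 0.0396% in bam8, 0.198% in bam7 bam8, 0.136% in BAM7-DNA_Ox, 0.185% in BAM8-DNA_Ox, 0.106% in BAM7-Lig_Ox, 0.0308% in BAM8-Lig_Ox and 0.0572% in BAM7_Ox.

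**Figure D4:**
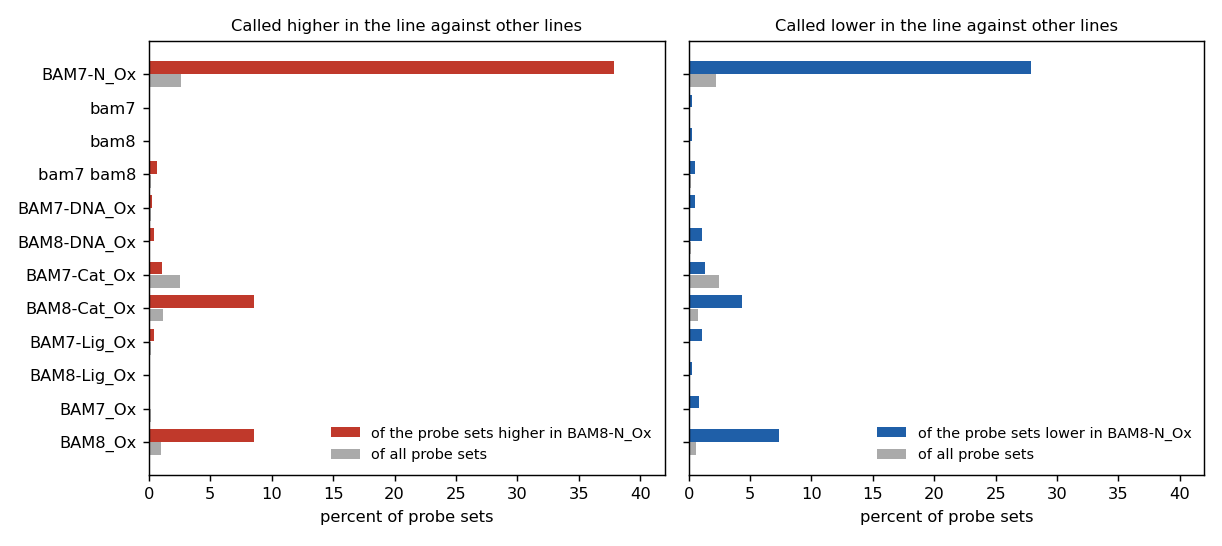
Percent of probe sets (horizontal) called higher (left) or lower (right) in each line set against the mean of the other lines, for the probe sets that were higher (red) or lower (blue) in BAM8-N_Ox against wildtype and for all probe sets (grey). BAM7-N_Ox has 37.9% and 27.9%, followed among the higher probe sets by BAM8_Ox and BAM8-Cat_Ox with 8.58% each and among the lower ones by BAM8_Ox with 7.32%.

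The same probe sets were also read array by array. Relative to the mean of the 11 other lines, the median of the 478 probe sets was 0.47 and 0.45 on the BAM8-N_Ox arrays and 0.23 and 0.28 on the BAM7-N_Ox arrays, against -0.21 and -0.14 in wildtype. For the 369 it was -0.45 and -0.34 in BAM8-N_Ox and -0.11 and -0.15 in BAM7-N_Ox, against 0.24 and 0.16 in wildtype. The BAM8-N_Ox and wildtype values chose the probe sets and are a description. On the 22 arrays of the 11 lines the median of the 478 lay between -0.08 and 0.07. That of the 369 lay between -0.10 in BAM8-DNA_Ox replicate 2 and 0.14 in BAM7-Cat_Ox replicate 2, so BAM7-N_Ox replicate 1 was just outside this range.

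**Figure D5:**
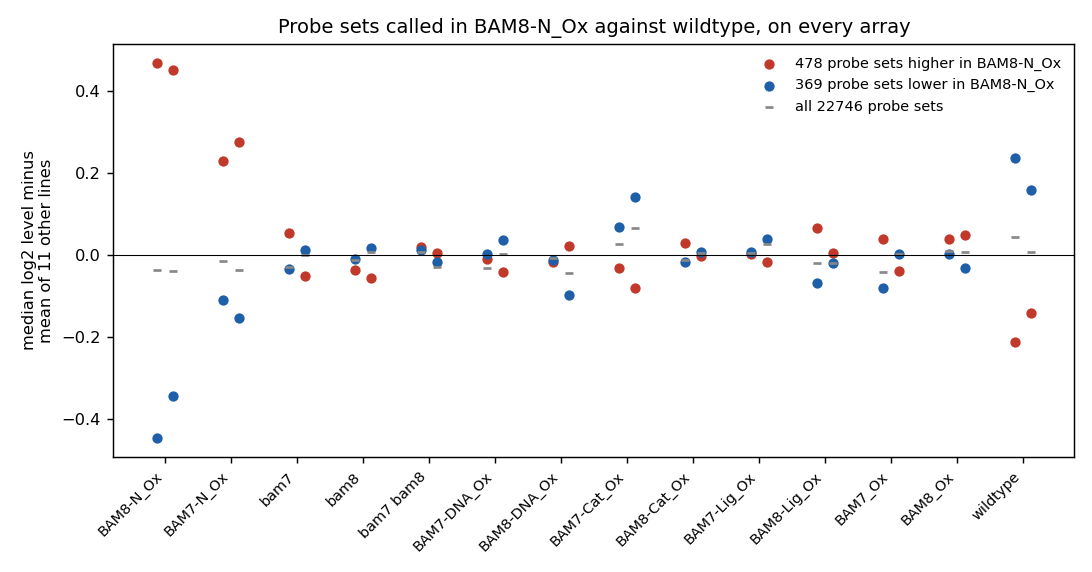
Median log2 level relative to the mean of 11 other lines (vertical) for each of the 28 arrays (horizontal, 2 per group), over the 478 probe sets higher (red) and the 369 lower (blue) in BAM8-N_Ox against wildtype, and over all probe sets (grey dashes). Both BAM7-N_Ox arrays lie on the side of BAM8-N_Ox, at 0.23 and 0.28 for the red points, and wildtype lies on the opposite side.

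Against BAM8_Ox, the line of the same protein without a suffix, 381 probe sets were called, 1.68% of those tested. BAM8-N_Ox was the higher line at 221 of them (0.972% of those tested) and the lower one at 160 (0.703%). With cyclic loess the split was 181 higher and 200 lower. The count was 1 with only the groups compared, 182 and 200 without replicates 1 and 2 of BAM8-N_Ox and 213 without BAM8_Ox replicate 2. Lower calls outnumbered higher ones without either BAM8_Ox array, with 91 higher and 122 lower without replicate 2 and 180 higher and 265 lower without replicate 1. To describe the side of the differences, both lines were set against the mean of the 10 lines other than BAM8-N_Ox, BAM8_Ox, BAM7-N_Ox and wildtype. Of the 221 higher probe sets, 168 were called higher in BAM8-N_Ox (2.58% of all were) and 23 lower in BAM8_Ox (0.624% of all). Of the 160 lower ones, 85 were called lower in BAM8-N_Ox (1.63% of all) and 67 higher in BAM8_Ox (0.954% of all). The same arrays chose these probe sets, so the counts are a description.

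The largest difference between these lines was at 248997_AT. It measured 14.4 units on both BAM8-N_Ox arrays, against 934 and 1067 in BAM8_Ox, a log2 difference of -6.11 (SE 0.206, 95% interval -6.55 to -5.68, adjusted p 3.51e-12). It was also bright in BAM8-Cat_Ox (725 and 405 units), BAM8-DNA_Ox (352 and 391) and BAM8-Lig_Ox (294 and 268). BAM8-N_Ox stood below wildtype too, which had 41.5 and 40.1 units, by a log2 difference of -1.50 (SE 0.206, adjusted p 0.000352). The signal at this probe set was thus high in each BAM8 overexpression line except BAM8-N_Ox, where it was the lowest of the 28 arrays. On all other arrays it lay between 31.5 units in BAM7-N_Ox replicate 1 and 71.8 units in bam8 replicate 1. Whether it reads a transcript of the transgenes was not tested, as no table pairs probe sets with genes.

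At 245171_AT the BAM8-N_Ox arrays had 4.47 and 4.39 units, against 42.1 and 36.6 in BAM8_Ox, a log2 difference of -3.15 (SE 0.120, adjusted p 1.63e-11). The levels of BAM8-N_Ox lay at the 4.84 and 4.18 percentile of their arrays, so this too is a lower bound if they are background. Wildtype, with 4.68 and 4.60 units, was as dim, and no difference from it was detected (-0.07, 95% interval -0.32 to 0.19, adjusted p 0.740). Only BAM8_Ox and BAM8-Cat_Ox, with 75.0 and 75.2 units, rose above 6.87 units at this probe set.

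Higher in BAM8-N_Ox than in BAM8_Ox were 257365_X_AT and 266778_AT. The ending X marks probes that can match several transcripts. 257365_X_AT had 131 and 205 units in BAM8-N_Ox, against 22.1 and 21.8 in BAM8_Ox, a log2 difference of 2.90 (SE 0.300, adjusted p 2.57e-05). BAM7-N_Ox was far brighter at this probe set, with 1715 and 1333 units, so that BAM8-N_Ox lay below it by a log2 difference of -3.21 (adjusted p 1.27e-05). BAM8-N_Ox was above wildtype, which had 66.4 and 58.2 units, by 1.40 (adjusted p 0.0138). 266778_AT had 75.6 and 76.3 units in BAM8-N_Ox, against 18.3 and 17.3 in BAM8_Ox, a difference of 2.09 (SE 0.163, adjusted p 7.96e-07). Both BAM8-N_Ox arrays were the brightest of the series at 266778_AT, and BAM7-N_Ox followed with 35.9 and 32.3 units. With only the groups compared, all of these calls except that of 248997_AT were lost, at adjusted p between 0.118 and 0.222.

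The direct comparison with BAM7-N_Ox tested whether the N lines of both proteins differ. The parental genotype and number of transformants of each line are not given. A difference between the N variants thus cannot be told apart from one between the lines. The comparison called 185 probe sets, 0.813% of those tested, of which 89 were higher (0.391%) and 96 lower (0.422%) in BAM8-N_Ox. The count was 0 with only the groups compared (2246 at an unadjusted p under 0.05), 89 without BAM8-N_Ox replicate 1 and 92 without BAM7-N_Ox replicate 2. Without BAM7-N_Ox replicate 1 the split was 46 higher and 91 lower. Against the mean of the 11 other lines, 39 of the 89 were called higher in BAM8-N_Ox (2.47% of all were) and 53 lower in BAM7-N_Ox (2.26% of all), and 25 of the 96 were called lower in BAM8-N_Ox (1.53% of all) and 73 higher in BAM7-N_Ox (2.63% of all). These counts too are a description, since the same arrays chose the probe sets. Of the 478 probe sets higher in BAM8-N_Ox than in wildtype, 33 were called higher and 3 lower than in BAM7-N_Ox. Their median log2 difference from BAM7-N_Ox was 0.19. Of the 369 lower ones, 21 were called lower and 5 higher, with a median of -0.17. The comparisons with wildtype and with BAM7-N_Ox share the BAM8-N_Ox arrays.

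At 3 of the 4 probe sets named for this comparison, BAM7-N_Ox was called against wildtype and BAM8-N_Ox was not. 250445_AT had 133 and 197 units in BAM8-N_Ox, against 38.2 and 24.4 in BAM7-N_Ox, a log2 difference of 2.41 (SE 0.353, adjusted p 0.00139). BAM8-N_Ox was not called against wildtype there (92.9 and 92.3 units, 0.81, 95% interval 0.06 to 1.55, adjusted p 0.193). Both its arrays were brighter than both wildtype arrays, and the unadjusted p of the limma test was 0.0349. 261339_AT had 34.2 and 46.9 units in BAM8-N_Ox, against 16.1 and 9.37 in BAM7-N_Ox, a difference of 1.70 (SE 0.263, adjusted p 0.00207), a call lost without BAM7-N_Ox replicate 2 (1.31, adjusted p 0.0627).

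Lower in BAM8-N_Ox were 249780_AT, described above, and 245393_AT. 249780_AT measured 93.9 and 101 units in BAM7-N_Ox, and BAM8-N_Ox lay below it by a log2 difference of -3.88 (SE 0.223, adjusted p 1.66e-08). 245393_AT had 4.80 and 5.00 units in BAM8-N_Ox, against 39.0 and 59.6 in BAM7-N_Ox, a difference of -3.30 (SE 0.250, adjusted p 1.02e-06). The BAM8-N_Ox levels lay at the 7.60 and 9.49 percentile of their arrays, so this is a lower bound if they are background. At 245393_AT the BAM7-N_Ox arrays stood alone, since the 26 others lay at or below 10.3 units, the 2 BAM8-N_Ox arrays among them.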

How the data were processed

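The authors deposited linear intensity values for every probe set and array. The submitters' processing notes name RMA without a version, and its steps were not checked. After log2 transformation and removal of 1 control, 22746 probe sets were tested unfiltered. Means of the 14 genotypes were estimated from the 28 arrays together by limma 3.58.1 (R 4.3.3) (14 residual degrees of freedom, 17.7 with those limma adds). The fit was also run on simulated data. These gave a probe set the same spread in every group, so the run does not test the pooling of unequal spreads. Contrasts were tested two-sided and adjusted by Benjamini-Hochberg over all probe sets of a contrast, with a call at an adjusted p under 0.05. The part of the series described, the lists and the comparisons were chosen with earlier results of these data known. Contrasts with the mean of other lines were chosen after the data were seen. The rule for naming took, per comparison and direction, the 2 called probe sets with the largest difference whose groups do not overlap. Since no table pairs probe sets with genes, its condition of 1 gene per probe set, the 25 gene lists with the tissue markers, and the promoter motifs were not run. Levels of probe sets in further lines were given after they were seen. The settings tried were a fit restricted to the compared groups, leaving out the 7582 dimmest probe sets, and quantile or cyclic loess normalization. Others were a robust fit with a variance trend, array weights and a block for the replicate number. Further ones were removal of 1061 probe sets whose ID ends in S_AT or X_AT, and removal of single arrays. Removal of both BAM7-Cat_Ox arrays was an unplanned setting. The 2 arrays per group limit the precision, which also depends on the level of a probe set and on pooling the spread. Sequencing depth does not apply. The plots come from matplotlib 3.10.9 (Python 3.11.15).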

Additional observations from a re-analysis of the deposited data

Results flagged for a closer look

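The N lines of both proteins differed from each other at 185 probe sets by the direct limma test of BAM8-N_Ox minus BAM7-N_Ox. Among the probe sets named above, 249780_AT differed by -3.88, with a fall of 2.89 in BAM8-N_Ox and a rise of 0.99 in BAM7-N_Ox against wildtype. The -3.88 and the fall are lower bounds if the dim levels of BAM8-N_Ox are background. Neither part was limited to the N lines. The bam8 line and the other BAM8 overexpression lines were dim too, between 4.16 and 5.86 units. Wildtype was the lowest of the bright groups, and bam7 bam8 replicate 1 (107 units) lay above both BAM7-N_Ox arrays (93.9 and 101). 245393_AT differed by -3.30, with -0.09 in BAM8-N_Ox (not called) and 3.21 in BAM7-N_Ox, where -3.30 and 3.21 are lower bounds if the dim levels of BAM8-N_Ox and wildtype are background. 250445_AT differed by 2.41, with 0.81 in BAM8-N_Ox (not called) and -1.60 in BAM7-N_Ox. 261339_AT differed by 1.70, with -0.24 in BAM8-N_Ox (not called) and -1.94 in BAM7-N_Ox. 264514_AT differed by 1.37 (adjusted p 0.0357) and 256527_AT by -0.85 (adjusted p 0.00613), and both moved the same way in both N lines against wildtype, by 3.30 and -2.08 in BAM8-N_Ox and by 1.93 and -1.23 in BAM7-N_Ox. 257365_X_AT differed by -3.21, with 1.40 in BAM8-N_Ox and 4.60 in BAM7-N_Ox against wildtype, and 266778_AT by 1.16, with 1.98 in BAM8-N_Ox and 0.82 in BAM7-N_Ox. 248997_AT differed by -1.33, with -1.50 in BAM8-N_Ox and -0.17 in BAM7-N_Ox (not called, adjusted p 0.681). No group held enough arrays for a search for single arrays that stand apart.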

How the results depend on the processing

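With only the groups compared, which leaves 2 residual degrees of freedom, limma called 3 probe sets against wildtype (4282 at an unadjusted p under 0.05), 1 against BAM8_Ox (3395) and 0 against BAM7-N_Ox (2246). Leaving out 1 array at a time gave 250 to 1469 calls against wildtype, 182 to 445 against BAM8_Ox and 89 to 148 against BAM7-N_Ox. A group left with 1 array was assumed to vary like the others. Array weights gave 752 calls against BAM8_Ox and 468 against BAM7-N_Ox. Every other setting changed a count by less than 1.5 times, at 764 to 1053 against wildtype. The highest of these, 1053, came without the BAM7-Cat_Ox arrays, which enter the main fit through the pooled spread. Of 145 alternative values of the 12 named results, 135 kept the call, 10 lost it and 0 changed sign, which is largely set by the rule that the groups do not overlap. The difference at 249780_AT was -1.84 against the mean of 11 other lines, in some of which it was dim too. Same-numbered replicates share only a number: the deviations of BAM8-N_Ox correlated at r = -0.04, -0.17 and -0.02 with those of wildtype, BAM8_Ox and BAM7-N_Ox, and the replicate block gave 886, 371 and 187 calls. The lack of detection calls limits what can be said of dim probe sets.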
